A study of Mus musculus with 16 samples.

Results

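The measurement described here was the genotype difference in the change from embryonic stem (ES) cells to embryoid bodies at EB4. For each gene it was the EB4 minus ES change in Taf4a-/- cells minus the same change in wild-type cells, on the scale of log2(normalised count + 1). The difference was computed for all 27807 genes of the table from the 8 libraries at ES and EB4, of the 16 libraries of the series, and a test was made on the 16124 genes whose mean over the 16 libraries reached 10 normalised counts. A positive difference means that the level at EB4 relative to ES was higher in Taf4a-/- cells than in wild-type cells.

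The study followed mouse ES cells and the embryoid bodies made from them by sequencing polyadenylated RNA. Each of the 4 groups used here held 2 libraries, WT ES, WT EB4, Taf4a-/- ES and Taf4a-/- EB4, with the genotypes given as Taf4+/+ (WT) and Taf4-/- (KO, carrying a germline null allele in both copies). Each genotype was represented by 2 lines derived from blastocysts of heterozygous crosses, so a genotype here is a pair of lines. ES cells were grown with LIF on inactivated embryonic fibroblast feeders, and EB4 embryoid bodies had been without LIF and had not yet received retinoic acid.

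TAF4, the product of Taf4a, belongs to the core of TFIID, a complex of the basal transcription machinery that carries the TATA-binding protein to promoters, and TAF4B is its paralogue. ES cells grown with LIF hold a naive pluripotent state kept by factors such as ESRRB, NANOG and the KLF proteins. When LIF is withdrawn and the cells aggregate, the naive network is shut down first, and genes of the later, formative and primed epiblast such as Fgf5 are switched on before germ layer genes.

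Depth ran from 22613253 to 40711826 recovered reads in genes over the 8 libraries, and all 4 ES libraries were deeper than all 4 EB4 libraries, so stage and any sequencing batch cannot be told apart. The Taf4a transcript, whose null allele lacks internal exons and is still counted over the rest of the gene, lay between 1751.6 and 1959.6 normalised counts in the 4 WT libraries and between 2055.9 and 2400.0 in the 4 KO libraries. That count therefore does not check the genotype. Taf4b lay between 825.7 and 1223.3 normalised counts in WT and between 1172.9 and 1490.1 in KO, and its difference in change was 0.04 (SE 0.31). Of the ES cell markers, Pou5f1 stood at 9597.1 normalised counts or more in each of the 8 libraries. In these bulk samples fewer cells of a type and less RNA per cell cannot be told apart, and p-values measure only the spread between the 2 libraries of each group.

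The marks of the lines differed between WT libraries that share a replicate number. The Y-linked gene Eif2s3y stood at 2248.1 normalised counts in WT ES replicate 1 and at 4 in WT ES replicate 2, while both WT EB4 libraries had 1322.8 and 1277.1. The non-coding RNA Xist, which marks an inactive X chromosome, stood at 15.5 and 550.1 normalised counts in WT ES and at 39.5 and 52.5 in WT EB4. Thus WT ES replicate 2 and WT EB4 replicate 2 carried different marks although they share a number. Kdm5d, also Y-linked, stood at 198.4 in WT ES replicate 1 but at 0 in WT EB4 replicate 1 and 64.3 in WT EB4 replicate 2. Leaving out WT ES replicate 2 therefore does not settle which WT libraries share a line. The limma counts of the changes and their difference, the list medians and some genes that WT ES replicate 2 moved are also given without it. Other counts, shares and gene values are given only with that library.

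More genes passed the test of the ES to EB4 change in wild-type cells than in Taf4a-/- cells. With limma at an adjusted p of 0.05, 1448 genes rose in WT (8.98% of those tested) and 1220 fell (7.57%). In KO, 404 genes rose (2.51%) and 160 fell (0.992%). The 321 genes that rose in both genotypes made up 22.2% of those that rose in WT and 79.5% of those that rose in KO. The 107 that fell in both made up 8.77% of the WT list and 66.9% of the KO list. No gene passed the test in opposite directions in the 2 genotypes. Without WT ES replicate 2, the same test called 1144 genes up and 861 down in WT and 665 up and 315 down in KO. The KO count was fragile, as leaving out KO EB4 replicate 1 left 2 calls, KO ES replicate 2 left 45, KO ES replicate 1 left 61 and KO EB4 replicate 2 left 81, while leaving out WT ES replicate 1 gave 990. The WT count fell to 1509 without WT EB4 replicate 1 and to 1289 without WT EB4 replicate 2.

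The size of the change could also be read from single pairings of an ES with an EB4 library. Over the 4 pairings in WT, the interquartile range of the change over genes was 1.11 to 1.15 log2 units, and 26.8% to 29.2% of genes moved by 1 log2 unit or more. Over the 4 pairings in KO, the range was 0.816 to 0.955 log2 units, and 16.5% to 22.0% of genes moved that far. The KO values lay below the WT values in every pairing. Replicates of 1 group spread less in KO ES (interquartile range of the replicate difference 0.495 log2 units) than in WT ES (0.899), with WT EB4 at 0.693 and KO EB4 at 0.617. The part of that spread in the size of the change was not tested.

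Genes chosen for a large change in 1 pairing were then read in the libraries that had not chosen them. The 728 genes that were lower by 2 log2 units or more in WT replicate 1 had a median change of −1.58 log2 units in WT replicate 2, against −0.91 and −0.51 in KO replicates 1 and 2. The 1095 genes chosen in the same way in WT replicate 2 had a median of −1.15 in WT replicate 1, against −0.41 and −0.27 in KO. For genes chosen as higher the medians of the genotypes lay closer together. The 698 genes chosen as higher in WT replicate 1 had a median of 1.09 in WT replicate 2 and of 1.32 and 0.97 in KO. In the other direction, the 238 genes chosen as lower in KO replicate 1 had a median of −1.29 in KO replicate 2 and of −1.97 and −1.75 in WT. The 220 chosen in KO replicate 2 had a median of −0.99 in KO replicate 1 and of −1.23 and −0.76 in WT, on both sides of the KO value. These medians are descriptions, as genes are not independent replicates.

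The genotype difference itself was tested as an interaction term. With limma, 0 of the 16124 genes passed (0%), the smallest adjusted p being 0.357. At an unadjusted p of 0.05, 1129 genes differed, of which 705 were positive (4.37% of those tested) and 424 negative (2.63%). edgeR's quasi-likelihood test on the recovered reads also called 0 genes, with 1198 at an unadjusted p of 0.05 and a smallest adjusted p of 0.292. DESeq2 on the same reads called 112 genes, 91 positive and 21 negative. Without WT ES replicate 2, limma again called 0 genes, with 772 at an unadjusted p of 0.05, while without WT ES replicate 1 it called 38. The median standard error of a difference was 0.47 log2 units, with quartiles of 0.31 and 0.80.

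A simple arrangement of the libraries was also counted. In 1486 genes (9.22%) every pairing of a KO EB4 with a KO ES library gave a change above every WT pairing, and in 1332 genes (8.26%) every KO pairing lay below every WT pairing. Such genes are called separated in what follows. In 232 genes every WT pairing was lower at EB4 while every KO pairing was higher, and in 164 genes the reverse arrangement was found.

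EB5 and EB8 libraries were not part of the difference, so they gave a reading of the KO minus WT level in other libraries. They did enter the filter and the fitted spread of each gene, which all the limma tests share. Genes chosen at a small unadjusted p can have a small fitted spread. The shares that passed at EB5 and EB8 are thus not independent of the choice. Of the 705 genes with a positive difference at an unadjusted p of 0.05, 617 (87.5%) were higher in KO than in WT at EB5, against 49.3% of all genes tested. Among them 193 (27.4%) passed the limma test as higher at EB5, against 2.17% of all genes. At EB8, 584 (82.8%) were higher in KO, against 48.1% of all genes. There 374 (53%) passed as higher, against 10.4%, and 33 passed as lower, against 12.5%. Of the 424 genes with a negative difference, 389 (91.7%) were lower in KO at EB5, against 50.7% of all genes. Among them 74 (17.5%) passed as lower at EB5 against 2.17% of all genes. At EB8, 356 (84%) were lower in KO, against 51.9% of all genes. There 199 (46.9%) passed as lower against 12.5%, and 11 passed as higher against 10.4%. Genes with a genotype difference in the ES to EB4 change thus mostly had a KO minus WT level of the same sign at EB5 and EB8. These are levels within a stage and not changes. WT ES replicate 2 had Eif2s3y at 4 normalised counts, against 840.7 to 1267.5 in the WT EB5 and EB8 libraries. The WT lines therefore cannot be taken as the same at all stages.

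Within a stage, limma called 0 genes as higher or lower in KO than in WT at ES (0% in each direction), with 1846 at an unadjusted p of 0.05 and a smallest adjusted p of 0.0519. edgeR called 0 genes at ES with 1975 at an unadjusted p of 0.05, and DESeq2 called 476. At EB4 limma called 443 genes as higher (2.75%) and 543 as lower (3.37%) in KO, 986 in all, against 811 with edgeR and 2077 with DESeq2. These 2 comparisons share their libraries with the difference in change, so they are given as levels beside it and not as support.

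**Figure D1:**
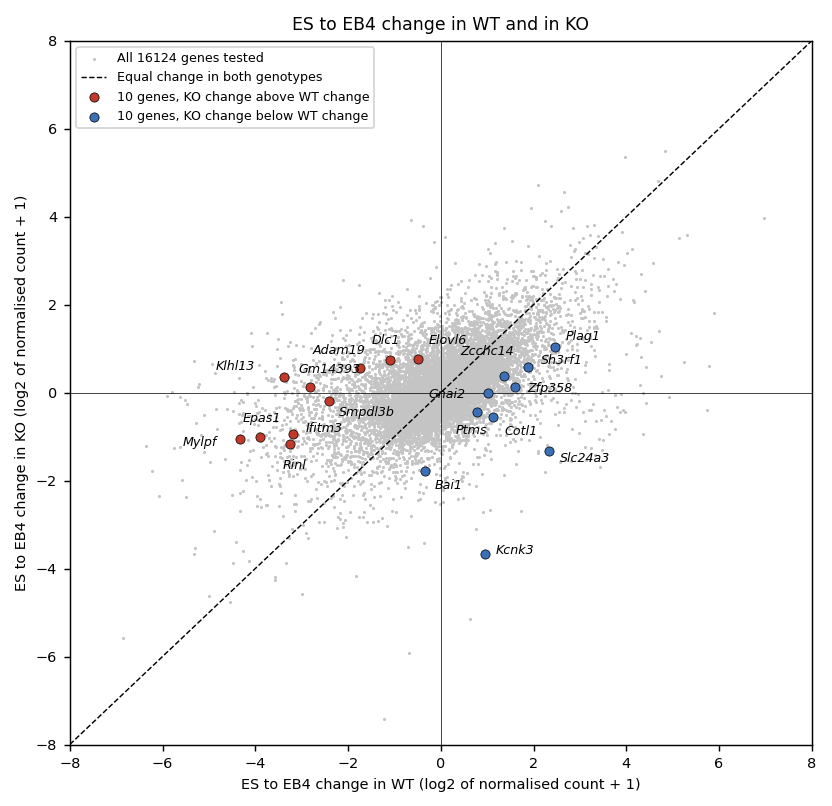
Change from ES to EB4 in WT (horizontal axis) and in KO (vertical axis), both as the difference of mean log2(normalised count + 1), for the 16124 genes tested (grey points), with 10 named genes whose KO change lay above the WT change in red and 10 whose KO change lay below it in blue. The dashed line marks equal change, and the red genes sit between −4.33 (Mylpf) and −0.50 (Elovl6) on the WT axis but between −1.17 (Rinl) and 0.77 (Elovl6) on the KO axis.

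The named genes are the 10 separated genes in each direction with the smallest unadjusted p, none of which passed the limma test of the difference after adjustment. Among the 10 positive genes, 9 passed the limma test of the WT change and 2 that of the KO change. All 10 were higher in KO than in WT at EB5, 7 of them past the limma test (2.17% of all genes), and 9 of 10 passed at EB8 (10.4%). The EB5 and EB8 tests share the fitted spread by which these genes were chosen. DESeq2 called 18 of the 20 genes, 10 positive and 8 negative, on reads of the same libraries, so its calls are not separate support.

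Klhl13, on chromosome X at 22796397 to 22942208 of build NCBI37, encodes an adaptor that directs a cullin ubiquitin ligase to its substrates. Its normalised counts were 11588.2 and 28175.2 in WT ES, 1662.6 and 1803.6 in WT EB4, 5000.0 and 6443.9 in KO ES, and 4764.1 and 10978.7 in KO EB4. Both WT libraries were thus lower at EB4 than either ES library, whereas the KO groups overlapped. The WT level fell by 3.38 on the log2 scale (limma adjusted p = 0.00106), the KO change was 0.35 (adjusted p = 0.706), and the difference was 3.73 (SE 0.62, limma adjusted p = 0.357). Without WT ES replicate 2, whose X-linked genes stood high, the difference was 3.09.

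Adam19 encodes a membrane-bound metalloprotease that sheds growth factors. It was at 3139.2 and 4463.2 normalised counts in WT ES and at 1229.7 and 1010.1 in WT EB4, and at 4897.0 and 3087.6 in KO ES and 5107.6 and 6402.4 in KO EB4. At EB4 both KO libraries were higher than both WT libraries, while the ES libraries of the genotypes overlapped. The WT level fell by 1.75 (limma adjusted p = 0.00262), the KO change was 0.56 and the difference 2.30 (SE 0.39).

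Mylpf, which encodes a light chain of fast skeletal muscle myosin, showed the lowest WT EB4 levels relative to ES among these genes. Its counts were 1815.8 and 1859.3 in WT ES, 60.3 and 136.2 in WT EB4, 3678.4 and 3522.8 in KO ES, and 1281.6 and 2376.2 in KO EB4. The WT level fell by 4.33 on the log2 scale (limma adjusted p = 0.000365). The KO change was −1.04 (adjusted p = 0.159), and the difference was 3.28 (SE 0.57). KO libraries stood above WT libraries at both stages, by 0.97 log2 units at ES and 4.25 at EB4.

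Smpdl3b, a lipid-modifying phosphodiesterase of the plasma membrane, had nearly equal ES levels, 789.1 and 964.7 normalised counts for WT and 806.9 and 828.4 for KO. The WT libraries at EB4 had 195.1 and 135.1 normalised counts and the KO libraries 690.4 and 741.4. WT fell by 2.42 (limma adjusted p = 0.000698), the KO change was −0.19, and the difference was 2.23 (SE 0.40). The difference at EB5 was 1.98 and at EB8 1.32, both past the limma test (adjusted p = 0.00849 and 0.00602).

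Ifitm3, an interferon-induced membrane protein that is also a classic mark of early germ cells, was at 3158.3 and 4673.7 normalised counts in WT ES and at 441.7 and 406.4 in WT EB4. In KO it was at 4159.0 and 3953.8 in ES and at 1468.5 and 3037.2 in EB4. Both genotypes were lower at EB4, WT by a change of −3.18 (limma adjusted p = 0.000376) and KO by −0.94 (adjusted p = 0.104), and the difference was 2.24 (SE 0.43). Epas1, which encodes the hypoxia-inducible factor HIF-2 alpha, was at 3414.9 and 2058.6 in WT ES, 119.5 and 264.9 in WT EB4, 2461.4 and 2931.0 in KO ES and 1104.0 and 1623.3 in KO EB4. Its WT change was −3.89 (limma adjusted p = 0.000461), its KO change −1.004 (adjusted p = 0.17) and its difference 2.89 (SE 0.56). For both genes the KO level at EB4 lay between the WT EB4 level and the ES levels.

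In Rinl, a regulator of RAB GTPases, the fall passed the test in both genotypes. Its counts were 1089.5 and 1165.6 in WT ES, 100.8 and 137.3 in WT EB4, 1652.0 and 1749.6 in KO ES, and 702.1 and 810.4 in KO EB4. The change was −3.25 in WT (limma adjusted p = 0.000336) and −1.17 in KO (adjusted p = 0.0476), with a difference of 2.08 (SE 0.41). Gm14393, a gene model named only by its number, was at 67.4 and 83.7 in WT ES and 8.8 and 10.7 in WT EB4, against 80.5 and 84.3 in KO ES and 77.1 and 104.6 in KO EB4. The WT EB4 libraries alone stood low in that gene, and the difference was 2.95 (SE 0.59).

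Dlc1 and Elovl6 moved in opposite directions in every pairing of libraries. Dlc1, a tumour suppressor with a GTPase-activating domain, was at 6573.2 and 5074.7 normalised counts in WT ES and 3135.6 and 2333.3 in WT EB4, against 4413.1 and 4272.6 in KO ES and 6367.0 and 8181.4 in KO EB4. The WT level fell by 1.09 (limma adjusted p = 0.0107), the KO change was 0.73 (adjusted p = 0.106), and the difference was 1.83 (SE 0.34). Elovl6, a fatty acid elongase of the endoplasmic reticulum, was at 6231.0 and 8249.5 in WT ES, 5151.1 and 4998.0 in WT EB4, 5234.9 and 4294.7 in KO ES and 7017.7 and 9266.1 in KO EB4. Here it was the KO level that rose, by 0.77 (limma adjusted p = 0.0339), while the WT change was −0.50 (adjusted p = 0.0668) and the difference 1.26 (SE 0.24).

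**Figure D2:**
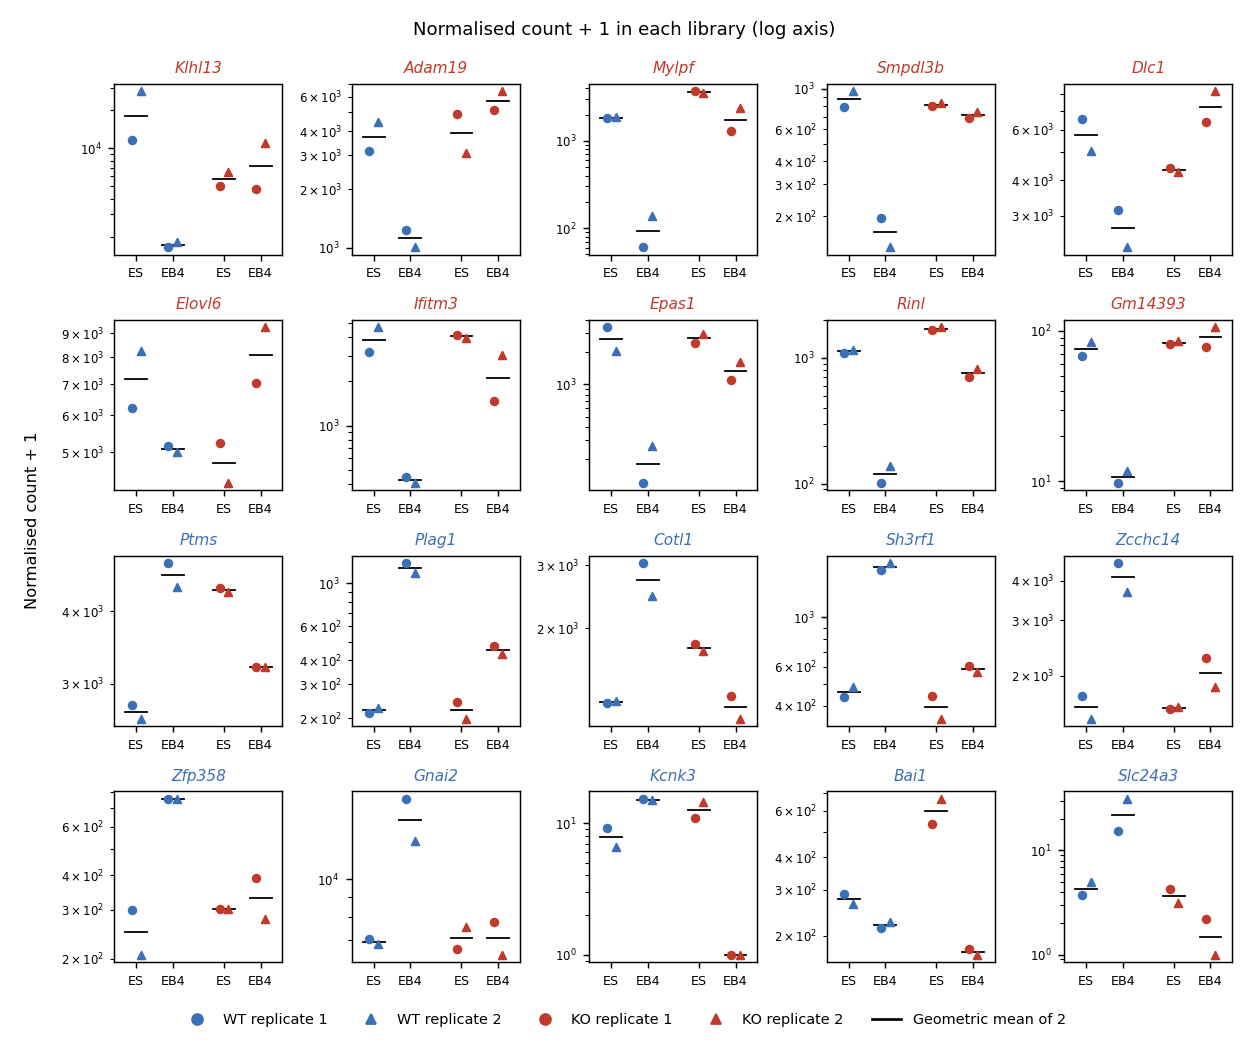
Normalised count + 1 of the 20 named genes in each of the 8 libraries, on a log axis, with WT in blue, KO in red, circles for replicate 1, triangles for replicate 2 and a bar at the geometric mean of the 2. In the top 10 panels the WT EB4 points lie below the other groups or, in Elovl6, beside KO ES, as in Smpdl3b at 195.1 and 135.1 normalised counts against 690.4 or more elsewhere.

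Of the 10 genes with the smallest unadjusted p in the negative direction, 8 rose in WT with limma, the exceptions being Kcnk3 and Bai1. In KO 3 of them changed, Plag1 upward and Kcnk3 and Bai1 downward. At EB5 9 of 10 were lower in KO than in WT, with 5 past the test (2.17% of all genes). At EB8 all 10 were lower, with 8 past the test (12.5% of all genes). Of the 10, 4 lie on chromosome 8, for which WT EB4 replicate 1 stood apart, as described with the chromosomes.

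Plag1, on chromosome 4 and encoding a zinc finger activator of growth genes such as Igf2, was at 213.0 and 224.0 normalised counts in WT ES, 1271.3 and 1136.6 in WT EB4, 243.2 and 198.0 in KO ES, and 472.0 and 430.1 in KO EB4. The ES levels overlapped, both genotypes rose, and the WT EB4 libraries stood above the KO EB4 libraries. The rise was 2.45 in WT (limma adjusted p = 0.000302) and 1.03 in KO (adjusted p = 0.0207), and the difference was −1.42 (SE 0.28). Ptms, encoding the small acidic chromatin protein parathymosin, was at 2761.4 and 2612.7 in WT ES and 4837.6 and 4407.1 in WT EB4, against 4378.2 and 4320.5 in KO ES and 3206.8 and 3204.4 in KO EB4. The genotypes thus stood in opposite order at the 2 stages. WT rose by 0.78 (limma adjusted p = 0.00783), the KO change was −0.44 (adjusted p = 0.136), and the difference was −1.22 (SE 0.23).

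Gnai2, an inhibitory G protein alpha subunit, was at 7032.0 and 6844.7 normalised counts in WT ES, 15992.4 and 12533.0 in WT EB4, 6643.7 and 7544.5 in KO ES and 7802.7 and 6430.5 in KO EB4. Only the WT EB4 libraries stood apart from the rest, with a WT change of 1.03 (limma adjusted p = 0.00341), a KO change of 0.00 and a difference of −1.03 (SE 0.25). Bai1, an adhesion receptor of the brain, behaved otherwise. It was at 287.6 and 263.9 in WT ES, 212.6 and 224.1 in WT EB4, 535.4 and 664.0 in KO ES and 176.4 and 168.5 in KO EB4. The KO level fell by 1.78 (limma adjusted p = 0.00582) from a higher ES level, the WT change was −0.33, and the difference was −1.45 (SE 0.35).

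The 4 genes of chromosome 8 were Cotl1, an actin-binding protein, Sh3rf1, a scaffold with a ubiquitin ligase domain, and the zinc finger genes Zcchc14 and Zfp358. Sh3rf1 was at 434.1 and 484.0 normalised counts in WT ES, 1635.2 and 1754.3 in WT EB4, 442.5 and 348.1 in KO ES and 602.8 and 565.3 in KO EB4, for a difference of −1.31 (SE 0.30). Cotl1 was at 1235.1 and 1248.5 in WT ES, 3036.9 and 2458.8 in WT EB4, 1802.3 and 1718.9 in KO ES and 1290.9 and 1114.1 in KO EB4, for a difference of −1.69 (SE 0.38). In both genes the WT EB4 libraries were the highest of the 4 groups. Without WT EB4 replicate 1, the differences were −1.36 for Sh3rf1, −1.54 for Cotl1, −0.85 for Zcchc14 and −1.47 for Zfp358, against −0.996 and −1.47 with it for the last 2 genes.

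Kcnk3 and Slc24a3 rested on few reads. Kcnk3, an acid-sensitive potassium channel, had 12 and 19 reads in the KO ES libraries, 0 and 0 in KO EB4 and 13 and 13 in WT EB4. With the floor set at 3 reads in each KO EB4 library, the mean of KO EB4 was at least 3.22-fold lower than that of KO ES and at least 3.83-fold lower than that of WT EB4. The limma test of the KO change gave an adjusted p of 0.0302. Its fitted difference of −4.62 depends on the pseudocount and is no bound. Slc24a3, a sodium, potassium and calcium exchanger, had 13 and 28 reads in WT EB4 but 1 and 0 in KO EB4, and the 4 and 3 reads in KO ES were near the same floor, so no KO fold is given.

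**Figure D3:**
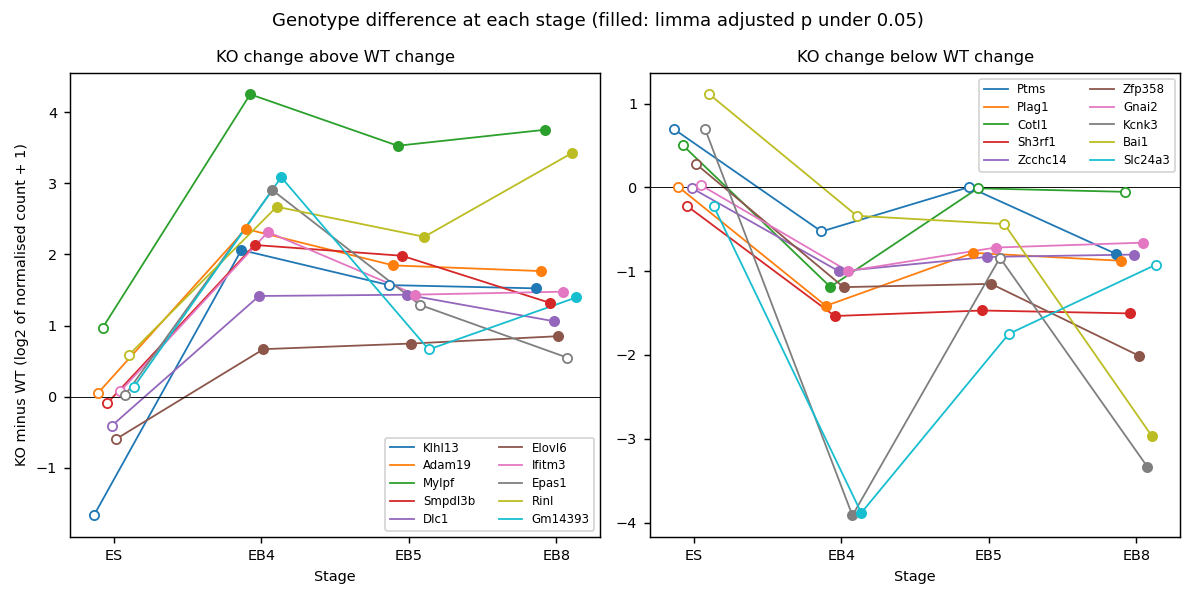
Difference between KO and WT in mean log2(normalised count + 1) at ES, EB4, EB5 and EB8 for the 10 named positive genes (left) and the 10 named negative genes (right), with filled points where the limma adjusted p was under 0.05. At ES no point is filled, at EB4 all 10 positive genes are, and the EB4 difference of Mylpf, 4.25, was followed by 3.53 at EB5 and 3.75 at EB8.

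Naive pluripotency genes mostly had a positive difference. Of its 20 genes tested, 14 fell in WT and 2 fell in KO with limma, and none rose. The median change was −1.84 log2 units in WT and −0.60 in KO, and the median difference was 1.25, with 19 of 20 genes positive, against −0.01 and 49.5% over all genes. At an unadjusted p of 0.05, 7 of the 20 were positive (4.37% of all genes) and 1 negative (2.63%). No member passed after adjustment. Without WT ES replicate 2 the median difference was 0.86. At EB5, 11 of the 20 genes passed as higher in KO and none as lower, against 2.17% of all genes in each direction. The EB5 libraries were not part of the difference but entered the fitted spread and the filter.

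Esrrb, an orphan nuclear receptor at the centre of the naive network, was at 7375.1 and 13417.5 normalised counts in WT ES and 3449.0 and 2053.4 in WT EB4, against 18717.3 and 17522.7 in KO ES and 10905.6 and 14100.1 in KO EB4. WT fell by 1.90 (limma adjusted p = 0.00375), the KO change was −0.55 (adjusted p = 0.368), and the difference was 1.36 (SE 0.47). Dppa5a, an RNA-binding protein of pluripotent cells, was at 13360.3 and 38420.3 in WT ES, 3717.5 and 1763.9 in WT EB4, 18548.0 and 23607.0 in KO ES and 13035.3 and 26039.7 in KO EB4. Both KO EB4 libraries stood above both WT EB4 libraries for each gene, and for Dppa5a the KO ES and KO EB4 libraries overlapped. The difference of Dppa5a was 2.96 (SE 0.78, limma adjusted p = 0.484). The differences without WT ES replicate 2 were 0.92 for Esrrb and 2.20 for Dppa5a.

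Nr0b1, a repressor tied to OCT4 in ES cells, was at 1526.4 and 3235.4 normalised counts in WT ES, 450.4 and 172.6 in WT EB4, 4579.9 and 5042.3 in KO ES and 1987.2 and 2269.0 in KO EB4. Zfp57, which protects methylation at imprinted regions, was at 6424.0 and 10380.6 in WT ES, 1196.8 and 1647.0 in WT EB4, 9830.6 and 11354.0 in KO ES and 4286.3 and 6976.7 in KO EB4. WT fell in both genes, by 2.99 and by 2.54 (limma adjusted p = 0.00208 and 0.00119), and the differences were 1.81 (SE 0.63) and 1.59 (SE 0.48). For Nr0b1 and Zfp57 the lowest libraries were those of WT EB4. Nr5a2, another nuclear receptor of the network, fell in WT by 1.77 (limma adjusted p = 0.00176) with a difference of 1.00 (SE 0.36). Tet2, which oxidises methylcytosine, fell in WT by 1.35 (limma adjusted p = 0.0143), and its KO level, at 4729.4 and 5828.5 normalised counts in ES and 3083.0 and 6713.8 in EB4, overlapped between stages.

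Nanog and 3 other naive genes had wider spreads. Nanog was at 6241.9 and 22356.7 normalised counts in WT ES, 6388.4 and 3464.6 in WT EB4, 18211.8 and 16742.2 in KO ES and 12278.3 and 18551.3 in KO EB4. WT ES replicate 1 lay between the 2 WT EB4 libraries, and neither the WT change of −1.33 (limma adjusted p = 0.116) nor the difference of 1.12 (SE 0.78) passed. The germ cell and ES cell factor Dppa3 had a difference of 2.56 (SE 1.06), the AKT coactivator Tcl1 2.14 (SE 1.15) and the growth factor Fgf4 2.12 (SE 1.18), all with larger errors than Esrrb. Of these 3 genes, Tcl1 fell in WT, by 2.80 (limma adjusted p = 0.0346). WT ES replicate 2 decided much of the value for several of them, as without it the difference was 0.20 for Nanog, 0.66 for Tcl1, 1.41 for Fgf4 and 2.34 for Dppa3.

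Stat3 and Klf5 did not share the pattern. Stat3, the transcription factor through which LIF acts, was at 3702.6 and 2215.7 normalised counts in WT ES, 1480.7 and 1494.8 in WT EB4, 4699.5 and 3181.2 in KO ES and 1050.3 and 835.9 in KO EB4. It fell in both genotypes, by 0.94 in WT (limma adjusted p = 0.031) and by 2.04 in KO (adjusted p = 0.00421), and was the 1 naive gene with a negative difference, −1.10 (SE 0.38). Klf5 fell by 1.52 in WT and by 1.39 in KO (limma adjusted p = 0.00503 and 0.0245), and its difference of 0.12 turned to −0.13 without WT EB4 replicate 1. In the LIF and STAT3 list the median difference was 0.47 over 15 genes, 8 of them positive and 7 negative, with 1 positive and 1 negative at an unadjusted p of 0.05. This median was 0.08 without WT ES replicate 1 and 0.12 without WT EB4 replicate 2. Lifr, a receptor subunit for LIF, had a difference of 1.13 (SE 0.24), with a WT fall of 0.68 (limma adjusted p = 0.0171) and a KO change of 0.44. Socs3, the feedback inhibitor of the pathway, had a difference of −2.16 (SE 1.10), with 2506.6 and 271.9 normalised counts in the WT ES libraries, and of −0.56 without WT ES replicate 2.

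The 14 genes of the general pluripotency list, which includes factors kept beyond the naive state, had a median difference of 0.23, with 8 positive. Pou5f1, which encodes OCT4, was at 29929.9 and 27999.0 normalised counts in WT ES, 19284.7 and 9597.1 in WT EB4, 30811.8 and 36605.6 in KO ES and 17374.2 and 19545.4 in KO EB4. KO EB4 replicate 1 lay within the WT EB4 range and replicate 2 just above it, and the difference of 0.22 (SE 0.54) turned to −0.28 without WT EB4 replicate 2. Sox2 had a difference of 0.23 (SE 0.34), and its SE was larger than the difference. Dppa2 and Dppa4, chromatin factors that work as a pair, stood apart from these. Dppa2 was at 2770.5 and 2815.2 in WT ES, 607.2 and 167.3 in WT EB4, 2686.4 and 3016.1 in KO ES and 1336.5 and 2723.3 in KO EB4, and WT fell by 3.13 (limma adjusted p = 0.00527) with a difference of 2.55 (SE 0.83). Dppa4 fell in WT by 1.96 (limma adjusted p = 0.0303), and its difference was 1.69 (SE 0.78).

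In the formative and primed list the direction differed by gene. Of 18 genes tested, 8 rose and 2 fell in WT, and 3 rose in KO. The median change was 1.24 in WT and 0.95 in KO, and the median difference was −0.57, with 6 of 18 positive, and it was −0.35 without WT ES replicate 2 but 0.08 without KO EB4 replicate 2. At an unadjusted p of 0.05, 4 were positive and 1 was negative. Fgf5, the growth factor that marks the primed epiblast, was at 209.3 and 286.2 normalised counts in WT ES, 3707.7 and 4971.2 in WT EB4, 129.5 and 359.5 in KO ES and 2751.2 and 1588.8 in KO EB4. It rose in both genotypes, by 4.13 and by 3.27 (limma adjusted p = 0.000633 and 0.0069), and its difference of −0.86 (SE 0.67) was about as large as its error. Tead2, a partner of the YAP coactivator, rose by 1.29 in WT (limma adjusted p = 0.00113), against a KO change of 0.38 and a difference of −0.91 (SE 0.24).

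The de novo DNA methylation genes were the members of that list that differed most among themselves. Dnmt3l, the catalytically inactive partner of the de novo methyltransferases, was at 11536.4 and 13850.4 normalised counts in WT ES and 1184.7 and 1811.1 in WT EB4, against 6355.6 and 10181.8 in KO ES and 6735.0 and 10489.9 in KO EB4. WT fell by 3.11 (limma adjusted p = 0.0025), while the KO ES and EB4 libraries were nearly the same pair of values, with a change of 0.06 and a difference of 3.17 (SE 0.69, limma adjusted p = 0.357). Dnmt3a was at 7842.9 and 8578.8 in WT ES, 9125.1 and 5962.0 in WT EB4, 4541.7 and 7069.2 in KO ES and 13149.8 and 15429.9 in KO EB4. It rose in KO by 1.33 (limma adjusted p = 0.0136) and its WT change was −0.15, for a difference of 1.48 (SE 0.32). Dnmt3b rose in WT by 1.79 (limma adjusted p = 0.0103), had a KO change of 0.87 and a difference of −0.93 (SE 0.55).

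Trophoblast and germline lists had higher median differences than most lists. All 16 trophoblast genes had a positive difference, with a median of 1.71, a median WT change of −1.61 and a median KO change of 0.44. Of them 4 fell in WT (7.57% of all genes) and none passed in KO, where 2.51% of all genes rose and 0.992% fell. At an unadjusted p of 0.05, 6 were positive (4.37% of all genes). Rhox9 and Rhox6, placental homeobox genes of chromosome X, had differences of 3.78 (SE 1.32) and 3.20 (SE 1.42). Rhox9 was at 261.2 and 650.6 normalised counts in WT ES, 11.0 and 36.5 in WT EB4, 193.4 and 413.8 in KO ES and 92.3 and 428.8 in KO EB4. Gata3, a trophoblast transcription factor, was at 113.8 and 259.9 in WT ES, 16.4 and 161.9 in WT EB4, 34.9 and 27.9 in KO ES and 88.8 and 121.2 in KO EB4, so KO ES was low from the start. Tfap2c, an AP-2 factor shared by trophoblast and germ cells, fell in WT by 1.70 (limma adjusted p = 0.0438), with a KO change of 0.02. The median difference of the trophoblast list was 1.37 without WT ES replicate 2.

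Of the 19 germline genes, 18 had a positive difference, and 5 were positive at an unadjusted p of 0.05 (4.37% of all genes). In WT 5 of the 19 fell (7.57% of all genes), and none passed in KO, where 2.51% of all genes rose and 0.992% fell. The median difference was 1.29, and 0.73 without WT ES replicate 2. Stra8, the retinoic acid responsive gene of meiotic entry, was at 83.7 and 299.0 normalised counts in WT ES, 2.2 and 4.3 in WT EB4, 14.1 and 16.4 in KO ES and 4.7 and 16.6 in KO EB4. The KO ES libraries stood below the WT ES libraries, and WT fell by 5.28 (limma adjusted p = 0.00103) from that higher start. Its difference was 4.58 (SE 0.95), and 3.67 without WT ES replicate 2. Hormad1, a protein of meiotic chromosome axes, was at 106.5 and 629.1 in WT ES, 27.4 and 29.0 in WT EB4, 75.5 and 188.7 in KO ES and 98.1 and 296.1 in KO EB4, with a difference of 3.67 (SE 1.14) that was 2.39 without WT ES replicate 2. Tdrd12, a protein of the piRNA pathway, had more reads and a smaller error, with 954.8 and 1373.7 in WT ES, 537.0 and 181.2 in WT EB4, 1846.2 and 1580.2 in KO ES and 1774.6 and 2149.0 in KO EB4, and a difference of 2.07 (SE 0.65). The 8 genes of the 2-cell-like list had a median difference of 0.93, which was 0.09 without WT ES replicate 2. None of them passed the limma test of the change in either genotype, while their median change was −1.02 in WT and −0.16 in KO. Their median KO minus WT level was −1.29 at ES and −0.23 at EB4, so KO was low at ES.

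**Figure D4:**
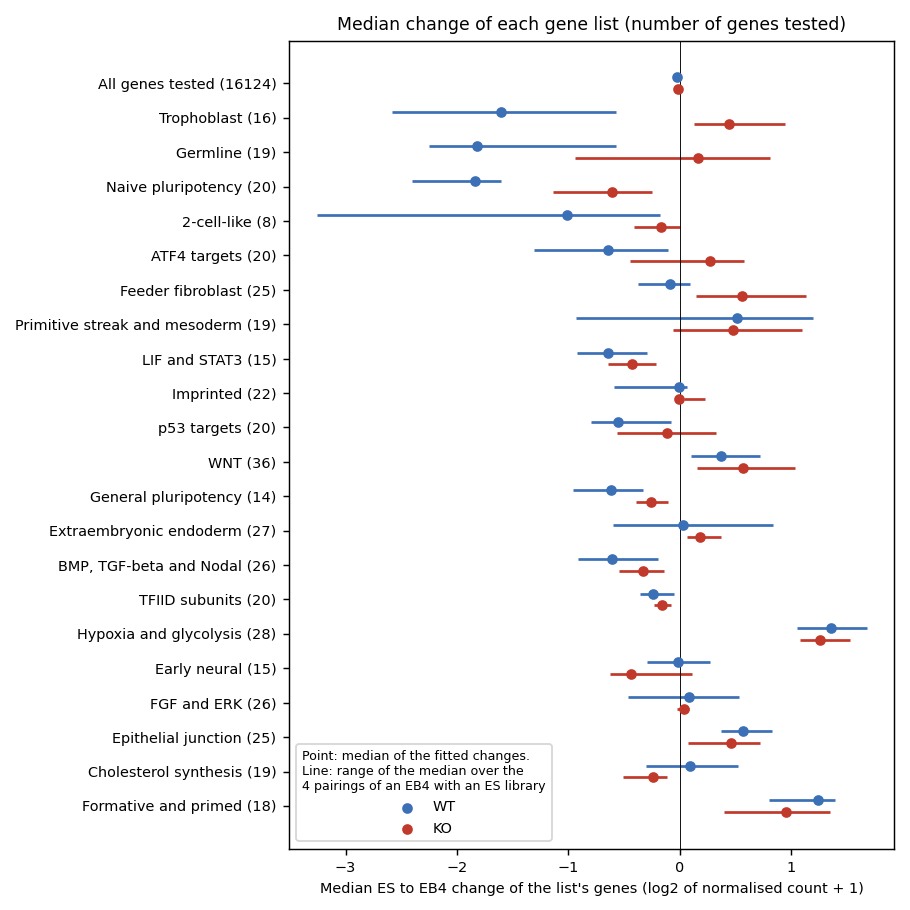
Median ES to EB4 change of each gene list in WT (blue) and KO (red), in log2(normalised count + 1), with the number of genes tested in brackets and a line from the lowest to the highest median over the 4 pairings of an EB4 with an ES library. For the trophoblast list the WT median was −1.61 and the KO median 0.44, while for hypoxia and glycolysis genes the medians were 1.36 and 1.26.

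Hypoxia and glycolysis genes rose in both genotypes. Of 28 genes tested, 16 rose in WT and 10 in KO, none fell, and the median change was 1.36 in WT and 1.26 in KO. The median difference was 0.01, and none of the 28 differed at an unadjusted p of 0.05. Egln1, the oxygen sensor that marks HIF proteins for destruction, was at 589.8 and 667.3 normalised counts in WT ES, 5488.6 and 5335.7 in WT EB4, 420.9 and 385.2 in KO ES and 2583.0 and 2168.2 in KO EB4. Its rise passed in both genotypes, by 3.11 and by 2.55 (limma adjusted p = 0.000461 and 0.00421). Egln3, a related enzyme, rose by 2.86 and by 3.75 (limma adjusted p = 0.00443 and 0.00582). Ldha, lactate dehydrogenase A, rose by 1.09 and by 1.26 (limma adjusted p = 0.0228 and 0.0339), with a difference of 0.17 (SE 0.40). The KO median of this list lay close to that of WT, while fewer of its genes passed in KO than in WT.

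The 20 genes of the ATF4 list, which respond to amino acid and integrated stress, had a median difference of 0.78, with 18 positive and 6 positive at an unadjusted p of 0.05 (4.37% of all genes). Without WT ES replicate 2 the median was 0.645. Cth, which makes cysteine from cystathionine, was at 2694.1 and 4059.0 normalised counts in WT ES, 527.2 and 390.3 in WT EB4, 1830.5 and 1801.8 in KO ES and 893.7 and 1407.6 in KO EB4, and WT fell by 2.86 (limma adjusted p = 0.00206) with a difference of 2.17 (SE 0.60). Asns, asparagine synthetase, had a difference of 1.29 (SE 0.50), Slc7a11, the cystine transporter, 1.57 (SE 0.68), and Phgdh, the first enzyme of serine synthesis, 0.71 (SE 0.28). For Phgdh both KO ES libraries, at 1779.0 and 1884.7, stood below both WT ES libraries, at 3493.2 and 3920.2. In the p53 target list 17 of 20 genes were positive with a median difference of 0.40, and 1, the stress-induced Sesn2 (0.81, SE 0.37), was positive at an unadjusted p of 0.05.

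Signalling lists differed among themselves. Of 36 WNT genes 8 rose and 3 fell in WT, 2 rose in KO, and at an unadjusted p of 0.05 1 difference was positive and 4 were negative (2.63% of all genes), with a median of 0.26. Fzd8, a WNT receptor, was at 137.4 and 94.1 normalised counts in WT ES, 914.0 and 842.8 in WT EB4, 117.1 and 111.5 in KO ES and 304.9 and 164.6 in KO EB4. The ES levels overlapped and the WT EB4 libraries stood above the KO EB4 libraries, with a WT rise of 2.94 (limma adjusted p = 0.00106) and a difference of −1.97 (SE 0.53). The receptor genes Fzd7 and Fzd5 had differences of −0.73 (SE 0.30) and −1.31 (SE 0.39), and Tcf7l1, a repressor of WNT targets, −0.84 (SE 0.32). Notum, a secreted WNT inhibitor, was the positive member, at 548.8 and 511.9 in WT ES, 35.1 and 20.4 in WT EB4, 1212.0 and 904.1 in KO ES and 183.4 and 269.3 in KO EB4, with a difference of 2.03 (SE 0.80).

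In the BMP, TGF-beta and Nodal list, 4 of 26 genes were positive and none negative at an unadjusted p of 0.05, against 4.37% and 2.63% of all genes, while the median difference was 0.13, with 14 of 26 positive. The ligand genes Gdf3 and Nodal fell in WT, by 2.91 and by 1.64 (limma adjusted p = 0.00251 and 0.00546), and had differences of 1.77 (SE 0.65) and 1.16 (SE 0.44). The inhibitor Smad7 had a difference of 0.93 (SE 0.40) and the BMP target Id2 of 0.94 (SE 0.36), and Id2 fell in both genotypes, by 2.05 and by 1.11 (limma adjusted p = 0.000869 and 0.0351). In the FGF and ERK list, 10 of 26 differences were positive, and at an unadjusted p of 0.05 2 were positive and 1 negative. In the epithelial junction list, 9 of 25 were positive, and 2 positive and none negative at that threshold. The shares over all genes were 4.37% and 2.63%. The cholesterol synthesis list had 2 of 19 genes with a positive difference and a median of −0.33, with 2 negative at an unadjusted p of 0.05, Stard4 (−0.86, SE 0.34) and Mvd (−0.90, SE 0.38), which lies on chromosome 8 and had −0.44 without WT EB4 replicate 1. The imprinted list had a median of 0.44 over 22 genes. Of these, 2 were positive at an unadjusted p of 0.05, namely Peg10 (1.42, SE 0.57) and H19 (1.28, SE 0.54). For Peg10 and H19, KO minus WT was −1.11 and −0.88 at ES, and 0.31 and 0.40 at EB4, so KO was low at ES.

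Over all genes, 8.98% rose and 7.57% fell in WT, and 2.51% rose and 0.992% fell in KO, and the counts of the germ layer lists are given against these shares. Of 19 primitive streak and mesoderm genes, 1 rose and 3 fell in WT, 2 rose in KO, and none differed at an unadjusted p of 0.05. Eomes, a T-box factor of streak and endoderm, was the gene that rose in both, by 1.96 in WT and by 2.41 in KO (limma adjusted p = 0.0196 and 0.0254). Of 15 early neural genes, 1 rose and 1 fell in WT and 1 fell in KO. Their differences were positive in 7 and negative in 8, with 1 negative at an unadjusted p of 0.05. Msi1, an RNA-binding protein of neural progenitors, was at 633.5 and 852.3 normalised counts in WT ES, 2390.3 and 2982.1 in WT EB4, 651.7 and 513.9 in KO ES and 1334.1 and 650.8 in KO EB4. It rose in WT by 1.86 (limma adjusted p = 0.00236) and had a difference of −1.17 (SE 0.41). The largest differences of the list went both ways, on low counts in the 8 libraries. They were 2.28 (SE 1.35) for Olig3, 2.09 (SE 1.22) for Dcx, −2.15 (SE 1.14) for Hes5 and −1.62 (SE 0.78) for Lhx2. The neuronal tubulin gene Tubb3 fell in both genotypes, by 1.87 and by 1.26 (limma adjusted p = 0.00174 and 0.0284). Of 27 extraembryonic endoderm genes, 4 rose and 3 fell in WT, and 1 rose and 1 fell in KO. At an unadjusted p of 0.05, 2 differences were negative. These were Cubn, an endocytic receptor of visceral endoderm, and Lama1, a basement membrane laminin. Cubn was at 107.4 and 14.4 normalised counts in WT ES, 153.4 and 587.6 in WT EB4, 11.6 and 12.2 in KO ES and 17.5 and 12.8 in KO EB4, so 1 WT ES library was near the KO level. Its difference was −2.58 (SE 1.14), and −1.17 without WT ES replicate 2. Lama1 fell in KO by 2.42 (limma adjusted p = 0.0302), while the WT EB4 libraries, at 502.0 and 1587.0, lay 1 on each side of the lower WT ES library.

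Among the 20 TFIID genes the median difference was 0.02 and none differed at an unadjusted p of 0.05. In WT 2 fell, Taf12 by 0.94 and Taf13 by 0.96 (limma adjusted p = 0.00904 and 0.0218), and in KO none passed the test of the change. The largest difference was that of Taf7l, the germ cell paralogue of TAF7 on chromosome X, at 1.85 (SE 1.25).

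Feeder fibroblast markers were read because ES cells were grown on feeders and embryoid bodies were not. Of 28 listed genes 25 were tested, 1 rose in WT (Dcn, by 2.50, limma adjusted p = 0.0445) and 1 rose in KO, and none fell. The summed level of the list was 41756.7 and 45608.7 normalised counts in WT ES, 26704.5 and 29935.3 in WT EB4, 38201.7 and 31960.6 in KO ES and 30827.8 and 43586.7 in KO EB4. The sum was lower at EB4 in both WT libraries, while the KO stages overlapped. The median difference of the list was 0.55, with 3 genes positive and 1 negative at an unadjusted p of 0.05. Its median KO minus WT level was −1.40 at ES and −1.03 at EB4, below WT at both stages. Col3a1, a fibrillar collagen of fibroblasts, was at 56.4 and 134.7 normalised counts in WT ES, 8.8 and 31.1 in WT EB4, 8.3 and 11.4 in KO ES and 28.0 and 49.8 in KO EB4, for a difference of 4.15 (SE 1.28). With WT ES replicate 2 left out, the median difference was 0.25 for general pluripotency, 0.20 for LIF and STAT3, 0.50 for WNT and 0.08 for BMP, TGF-beta and Nodal genes. It was then −0.60 for cholesterol synthesis, 0.63 for imprinted, 0.66 for p53 target, 0.08 for TFIID, −0.13 for hypoxia and glycolysis and 0.48 for feeder fibroblast genes. Of single genes, the difference was then −0.73 for Stat3, −0.88 for Fzd5, −0.56 for Dnmt3b and 0.97 for Asns. For Peg10 and Id2 it was 1.82 and 1.20, larger than with that library. The part of feeder RNA in the differences of other genes was not tested.

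Some chromosomes moved with single libraries. The median difference was −0.30 over the 853 genes tested of chromosome 8 and 0.33 over the 613 of chromosome X, against −0.07 to 0.09 over the other 18 autosomes. Relative to the mean of the 16 libraries, the median level of chromosome 8 was 0.41 log2 units higher in WT EB4 replicate 1 and between −0.16 and −0.04 in the other 7 libraries. Chromosome X stood at 0.47 in WT ES replicate 2, 0.35 in KO ES replicate 2 and 0.54 in KO EB4 replicate 2, and below 0 in the other 5 libraries. Of the 424 negative genes at an unadjusted p of 0.05, 47 (11.1%) lie on chromosome 8, against 5.29% of genes tested, and of the 705 positive genes 40 (5.67%) lie on chromosome X, against 3.80%. Chromosome 11 stood at 0.22 and 0.18 in KO ES and KO EB4 replicate 1, at both stages alike, and its median difference was 0.06. The cause of these shifts was not tested. Of X-linked genes, Klhl13 had a difference of 3.09 without WT ES replicate 2 and 3.13 without KO EB4 replicate 2. Rhox9 had a difference of 3.13 without WT ES replicate 2 and 2.68 without KO EB4 replicate 2, Rhox6 of 2.59 and 2.17, Nr0b1 of 1.27 and 1.72, and Taf7l of 1.22 and 0.73. The 28 genes tested of the mitochondrial genome had a median difference of 0.79, with a median change of −1.48 in WT and −0.65 in KO. Their median level relative to the mean of the 16 libraries was 0.79 to 1.30 in the 4 ES libraries and −0.49 to 0.28 in the 4 EB4 libraries. On chromosome 8, Egln1 had a difference of −0.53 without WT EB4 replicate 1.

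**Figure D5:**
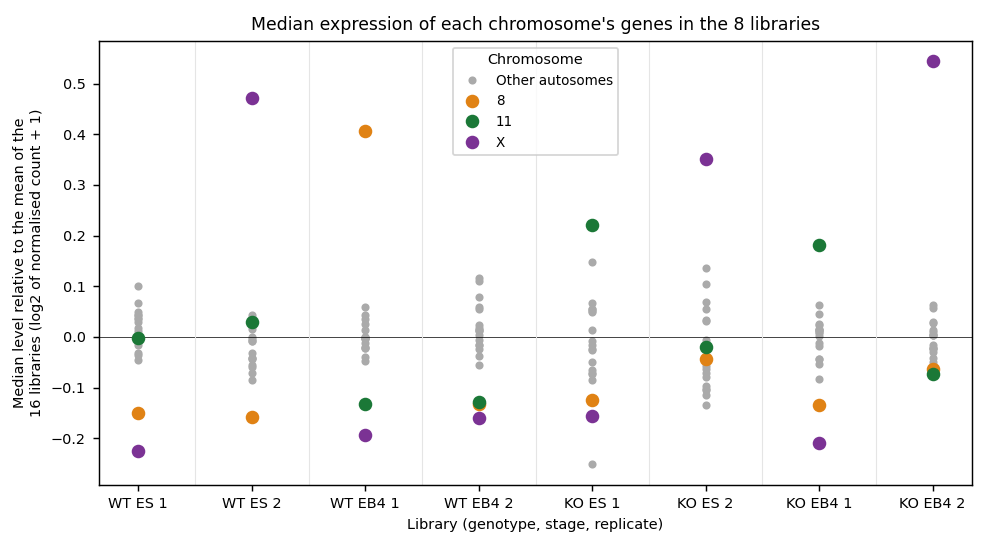
Median level of the genes of each chromosome in the 8 libraries, as log2(normalised count + 1) relative to the mean of the 16 libraries, with chromosomes 8, 11 and X in colour and the other autosomes in grey. Chromosome 8 stood at 0.41 in WT EB4 replicate 1 alone, and chromosome X stood at 0.35 to 0.54 in 3 libraries labelled replicate 2.

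Because TFIID recognises promoters in part through the TATA box, the start regions of the genes were read for the letters TATAA on the gene's strand, between 45 and 15 bases before a RefSeq start (GRCm38.p6). Of the 22862 gene symbols with exactly 1 RefSeq start window, 4.58% held it. Of the 10704 genes tested with at least 1 annotated start window, 323 (3.02%) held the letters before at least 1 start. The share was 6.47% (30 of 464) among genes with a positive difference at an unadjusted p of 0.05 and 1.69% (5 of 295) among those with a negative one. It was 5.45% (46 of 844) among genes that fell in WT, 2.55% (25 of 981) among those that rose in WT, 3.23% (4 of 124) among those that fell in KO and 5.80% (16 of 276) among those that rose in KO. These shares are descriptions with no test, and a match of 5 letters is not a binding site.

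The sequences of 4 genes with a positive difference and the letters in that place are shown, since they are what the share counts. They were chosen by small unadjusted p of the difference among higher-expressed genes, so they do not stand for all genes with the letters. Eomes, Tubb3 and Taf13 also hold them in that place, with differences of 0.45, 0.61 and 0.28. Each is the 60 bases before the start on the gene's strand, 5′ to 3′, with TATAA in capitals. Sdc4, a cell surface proteoglycan, has them 29 bases before its start (chr2:164443189-164443248, minus strand), and Sod1, the cytosolic superoxide dismutase, 37 bases before (chr16:90220702-90220761, plus strand). Nr0b1 has them 32 bases before (chrX:86191715-86191774, plus strand), and Igfbp4, which binds insulin-like growth factors, 28 bases before (chr11:99041184-99041243, plus strand).
Sdc4: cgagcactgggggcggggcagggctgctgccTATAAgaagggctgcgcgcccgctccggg
Sod1: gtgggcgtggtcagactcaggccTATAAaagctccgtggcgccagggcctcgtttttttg
Nr0b1: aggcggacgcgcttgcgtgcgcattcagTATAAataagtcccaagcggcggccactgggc
Igfbp4: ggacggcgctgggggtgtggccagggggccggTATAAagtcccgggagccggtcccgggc

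None of the 20 named genes that matched 1 window holds TATAA in that place, and 3 of them are shown for comparison. They are Smpdl3b (chr4:132757172-132757231, minus strand) and Ifitm3 (chr7:141010745-141010804, minus strand), with a positive difference, and Ptms (chr6:124917947-124918006, minus strand), with a negative one.
Smpdl3b: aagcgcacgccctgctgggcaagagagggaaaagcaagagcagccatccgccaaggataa
Ifitm3: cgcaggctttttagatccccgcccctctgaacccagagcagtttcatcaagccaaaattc
Ptms: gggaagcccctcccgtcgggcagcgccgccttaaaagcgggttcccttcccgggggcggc

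The 4 genes shown with the letters differed in level and error. Sdc4 was at 5482.8 and 6175.0 normalised counts in WT ES, 2623.8 and 3541.8 in WT EB4, 2899.7 and 4417.7 in KO ES and 4868.1 and 5879.2 in KO EB4, with a difference of 1.51 (SE 0.39). Sod1 was at 11489.0 and 13565.0 in WT ES, 5803.2 and 4984.0 in WT EB4, 13843.5 and 13355.2 in KO ES and 8642.7 and 8338.3 in KO EB4. Its fall passed in both genotypes, by 1.21 in WT and by 0.68 in KO (limma adjusted p = 0.000461 and 0.0198), with a difference of 0.54 (SE 0.18). Igfbp4 was at 526.1 and 913.7 in WT ES, 392.4 and 316.3 in WT EB4, 279.8 and 269.4 in KO ES and 515.2 and 335.6 in KO EB4, with a difference of 1.57 (SE 0.56). Without WT ES replicate 2 that difference was 1.17. The level of Sod1 was lower at EB4 in all libraries, whereas in Sdc4 and Igfbp4 both KO EB4 libraries stood above both KO ES libraries.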

How the data were processed

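Per the labels and the study's methods, the authors prepared polyadenylated RNA for single-end sequencing, mapped the reads to mm9 (NCBI37) with TopHat2 2.0.10, counted with HTSeq 0.5.4p3 and normalised with DESeq2 1.0.19. Which annotation was used, and whether strand was, is not given in the sources used here, and overlapping or near-identical genes cannot be told apart. The deposited values are a normalised signal, that is, read counts per gene scaled by each library's size factor. In all 16 libraries 100% of values were whole multiples of 1 step (tolerance 0.01), so whole reads were recovered, between 22442118 and 40711826 per library. A floor of 3 reads covers counting error only.

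The main test was limma 3.58.1 (R 4.3.3, eBayes with trend) on log2(normalised count + 1), which understates changes of low genes. It fitted a mean for each of 8 groups over 16 libraries, with 8 residual and 4.27 prior degrees of freedom, on the 16124 genes with a mean of at least 10, with Benjamini-Hochberg adjustment and a threshold of 0.05. The study used DESeq2. DESeq2 1.42.0, which left 626 genes without an adjusted p, and edgeR 4.0.16 were run on recovered reads as alternatives, and limma and edgeR were tested on simulated data. Python 3.11.15 was used for the rest. Alternatives were the pseudocount, filter, scaling, samples fitted, replicate block, tool, thresholds and each library left out.

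The comparison, gene lists and rules were chosen with earlier results of these data known. Named genes are the 10 separated genes per direction with the smallest unadjusted p, since none passed, up to 4 per list with the largest differences, Taf4a, Taf4b and marks of the lines. Many of the genes within the list rule are left out of the report, and others were named beside them. Chosen after their values were seen were Esrrb, Zfp57, Nr0b1, Nr5a2, Tet2, Klf5, Stat3, Nanog, Pou5f1, Sox2, Fgf5, Tead2, Dnmt3b, Tfap2c, Tdrd12, Asns, Phgdh, Sesn2, Fzd7, Fzd5, Tcf7l1, Lifr, Nodal, Smad7, Id2, Egln1, Ldha, Eomes, Msi1, Tubb3, Taf12, Taf13, Sdc4, Sod1 and Igfbp4. Gene positions on NCBI37 were found for the table's identifiers, and promoter windows are from RefSeq, where 8516 of the genes tested matched 1 window by symbol.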

Additional observations from a re-analysis of the deposited data

Results flagged for a closer look

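In 7 of the named genes every pairing of libraries moved 1 way in WT and the other way in KO. The difference in change was tested as an interaction and did not pass in any of them (limma adjusted p between 0.357 and 0.475). Lower in WT and higher in KO at EB4 were Adam19, with a difference of 2.30, WT changes of −2.14 to −1.35 and KO changes of 0.06 to 1.05, Dlc1, with a difference of 1.83, and Elovl6, with a difference of 1.26. Higher in WT and lower in KO were Ptms, with a difference of −1.22, WT changes of 0.67 to 0.89 and KO changes of −0.45 to −0.43, and Cotl1, with a difference of −1.69. Kcnk3 (−4.62) and Slc24a3 (−3.66) moved in the same way on few reads, and their differences depend on the pseudocount. Over all genes tested the same arrangement was found in 232 genes in the first direction and 164 in the second. Cotl1 lies on chromosome 8, whose level stood high in WT EB4 replicate 1, and without that library its difference was −1.54.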

How the results depend on the processing

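The count of genes for the difference in change was 0 with limma under most alternatives, 8 with the replicate block, 8 with the replicate block within genotype, 112 with DESeq2 and 0 to 38 with 1 library left out. The numbers were not taken to pair the libraries. The correlation of replicate differences over genes was −0.08 between WT ES and WT EB4, while it was 0.39 between KO ES and KO EB4, where the higher Xist and chromosome X levels were in replicate 2 and the higher chromosome 11 level in replicate 1 at both stages. The block left the counts of the WT change within 1.5 times and gave 757 for KO. For the WT change, 2668 in the main test, the count was 1480 with only ES and EB4 libraries, 844 at an adjusted p of 0.01, 1724 with a change of at least 1 log2 unit, and 1289 to 2526 with 1 library left out. For the KO change, 564 in the main test, it was 310 with no filter, 361 with quantile normalisation, 57 with only ES and EB4 libraries, 1291 with the replicate block within genotype, 1690 with DESeq2, 52 at an adjusted p of 0.01, and 2 to 990 with 1 library left out. The cause was not tested. Of single genes named, those whose difference changed sign did so with 1 library left out, with ranges of −0.13 to 0.38 for Klf5, −0.28 to 0.73 for Pou5f1, −0.0013 to 0.46 for Sox2, −0.32 to 1.22 for Eomes, −0.0856 to 0.64 for Taf13 and −0.16 to 0.23 for Taf4b. Among gene lists, leaving out 1 library turned the sign of the median difference of formative and primed (−0.91 to 0.08), hypoxia and glycolysis (−0.22 to 0.11), WNT (−0.08 to 0.52), BMP, TGF-beta and Nodal (−0.03 to 0.37) and TFIID genes (−0.11 to 0.08), as well as of lists whose median is not given. With 2 libraries a group, counts over many genes depend on single libraries.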
